A study of Mus musculus with 18 samples.

Results

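Fragments of nuclear tRNA-Glu made up most of the nuclear tRNA reads in the small RNA of mouse sperm. They were taken as every sequence whose annotation, in its first name, was a tRNA-Glu and not a mitochondrial one. This gave 212 distinct sequences of 207217 in the 4 sperm libraries, and 285710 of 2358974 reads. The 18 samples of the series were oocytes, sperm and blastocysts of mice that differ at Isca2, a gene of mitochondrial iron-sulfur cluster assembly. The sperm samples were 2 libraries from wild type males (WT) and 2 labelled Isca2 -/- (KO). The labels give no strain, age or number of males for the sperm, and do not say how the Isca2 allele was made or whether a Cre line was used. Nothing says that the 2 libraries of a genotype came from separate males, so the spread between them may be technical. Small RNA reads do not measure Isca2 messenger RNA, so the genotype labels could not be checked here.

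A tRNA carries an amino acid to the ribosome and reads the codon through the 3 bases of its anticodon, which sit in a loop at the far end of the folded molecule. Cleavage of a mature tRNA, often in or near the anticodon loop, leaves fragments named by the side they come from. Mature sperm are known for abundant fragments from the 5′ side of tRNA-Gly and tRNA-Glu, and such fragments have been studied as carriers of paternal signals to the embryo. There are 2 kinds of nuclear tRNA-Glu that read the glutamate codons, with the anticodon CTC or TTC as written in DNA letters.

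Almost all tRNA-Glu reads belonged to 4 sequences, shown here because the results turn on them. Letters are DNA letters as deposited, and capitals mark the bases of the anticodon that the read holds.

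CTC, 21 nt: tggttaggattcggcgctCTC
CTC, 20 nt, 1 base shorter at its 3′ end: tggttaggattcggcgctCT
CTC, 20 nt, 1 base shorter at its 5′ end: ggttaggattcggcgctCTC
TTC, 21 nt: cggttaggattcctggttTTC

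The reads themselves placed these fragments on the tRNA. Joining overlapping tRNA-Glu-CTC reads gave a sequence of 74 bases, and a stem of 5 base pairs around a loop of 7 bases put the anticodon at positions 34 to 36, counted from the 5′ end. The leading read from the 3′ side of tRNA-Glu-TTC is shown next for contrast, and was chosen after its values were seen.

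TTC, 3′ side, 25 nt: gcccgggttcgactcccggtgtggg

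The 21-nt CTC fragment thus covered positions 16 to 36, from the D loop to the last base of the anticodon. The 20-nt fragment with the shorter 3′ end covered positions 16 to 35, and the 20-nt fragment with the shorter 5′ end covered positions 17 to 36. The TTC fragment held the same place in its own tRNA, since it also began 18 bases before the anticodon and ended on its last base. The 21-nt CTC and TTC fragments had the same letter at 15 of 21 positions. The files hold no reads shorter than 20 nt, so the leading fragments lie at the lower edge of what was deposited, and a fragment of 19 nt or less would not be seen.

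RefSeq lists 12 nuclear genes named for the CTC anticodon (n-TEctc) and 8 for the TTC anticodon (n-TEttc) on GRCm38.p6, each 72 bases long, on 10 chromosomes. The CTC genes include 4 on chromosome 1, namely n-TEctc5 (171064164 to 171064235), n-TEctc8 (171071792 to 171071863), n-TEctc7 (171079406 to 171079477) and n-TEctc6 (171103043 to 171103114). The deposited reads carry no coordinates and the fragments are shared between copies, so no read was assigned to 1 gene.

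The libraries differed in depth and in their rRNA content, and WT replicate 2 stood apart. Totals were 205993 and 703036 reads in WT, and in KO 703133 and 746812. Names of rRNA took 68.2% of reads in WT replicate 2 and 30.4% to 35.3% in the other 3 libraries, with 28S rRNA alone at 55.2% against 19.3% to 25.2%. MicroRNAs were scarce, with 422 to 2453 reads per library under a specific mouse name. Of 11 microRNAs listed as markers of sperm and germ cells, 10 had no read in any library, mir-34b, mir-34c and mir-449a among them, and the other had 3 reads in WT replicate 1 alone. The summed level of the list was 0 to 14.6 CPM, that is, reads scaled to the library total. Of 11 epididymal microRNAs 9 were found, at a summed 59.7 to 222 CPM with mir-204 and mir-375 at 0. Of 10 microRNAs of blood and other cells 1 was found, with 1 read. So few microRNA reads do not tell whether the undetected ones were absent, and the part of other cells in the tRNA fragments was not tested.

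tRNA-Glu took more than 4 in 5 nuclear tRNA reads in every library, with no difference between genotypes beyond their spread. WT replicates 1 and 2 had 18885 tRNA-Glu reads of 21664 nuclear tRNA reads (87.2%) and 53388 of 63958 (83.5%). KO replicates 1 and 2 had 122742 of 136317 (90.04%) and 90695 of 107284 (84.5%). The genotypes overlapped, since KO replicate 2 lay below WT replicate 1. The means were 85.3% ± 2.62 (SD, n = 2) in WT and 87.3% ± 3.89 (SD, n = 2) in KO (exact two-sided permutation test, p = 0.667). With 2 libraries against 2 this test cannot give a p below 0.333, so no share reported here could pass a threshold of 0.05. The Wilson 95% interval of each share was at most 0.445 points to either side, so counting error was far below the spread between libraries. KO exceeded WT by 1.97 points, by 3.82 without WT replicate 1, by 0.117 without WT replicate 2 and by 4.72 without KO replicate 2, while without KO replicate 1 the direction turned (-0.786 points).

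Against all reads of a library, tRNA-Glu was higher in both KO libraries. The shares were 9.17% and 7.59% in WT and 17.5% and 12.1% in KO, with means of 8.38% ± 1.11 and 14.8% ± 3.76 (SD, n = 2 each; exact permutation p = 0.333, the smallest possible). Names of rRNA took 35.3% and 68.2% of reads in WT and 30.4% and 31.3% in KO. Whether this bears on the tRNA-Glu share was not tested. Among annotated reads without rRNA names the shares were 19.4% and 32.8% in WT and 31.8% and 25.1% in KO, so the genotypes overlapped (means 26.1% ± 9.51 and 28.5% ± 4.74, n = 2 each; exact permutation p = 1). A share of reads does not tell how many fragments a sperm cell held.

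The CTC anticodon supplied most tRNA-Glu reads, and its margin over TTC varied widely between libraries of 1 genotype. In WT, CTC had 16858 and 40346 reads against 2027 and 13042 reads of TTC. In KO it had 118414 and 80584 reads against 4328 and 10111 reads of TTC. CTC thus held 89.3% and 75.6% of tRNA-Glu reads in WT and 96.5% and 88.9% in KO. WT replicate 2 had the lowest CTC share and KO replicate 1 the highest, while WT replicate 1 and KO replicate 2 were nearly level. The means were 82.4% ± 9.68 and 92.7% ± 5.39 (SD, n = 2 each; exact permutation p = 0.667). The difference of 10.2 points became 3.40 points without WT replicate 2, 6.43 without KO replicate 1 and 17.1 without WT replicate 1. The ratio of CTC to TTC reads was 8.32 and 3.09 in WT and 27.4 and 7.97 in KO. Reads that named both anticodons in their annotation, and were counted under the first, numbered 7 to 33 per library.

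Every tRNA-Glu read was annotated as a mature tRNA. Precursor forms, which still carry leader, trailer or intron sequence, had 0 tRNA-Glu reads in each library. For counting error alone, this allows a share of reads so labelled of up to 0.0159% in WT replicate 1 and 0.00244% in KO replicate 1. The leading fragments lie inside the tRNA and hold no leader or trailer. A read from there would look the same from a precursor, so the label does not bound the share of precursors. Precursor reads of other nuclear tRNAs numbered 10 to 49 per library. Mitochondrial tRNA-Glu, a separate molecule that is not counted here, had 34 to 74 reads.

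The tRNA-Glu fragments were short. Reads of 20 and 21 nt were 98.9% and 98.6% of tRNA-Glu reads in WT and 99.3% and 99.3% in KO. Both KO libraries lay above both WT libraries, by 0.49 points on average (exact permutation p = 0.333, n = 2 each). Within CTC, reads of 21 nt were 55.6% and 35.4% in WT and 69.3% and 63.7% in KO, and reads of 20 nt were 43.4% and 63.3% in WT and 30.1% and 35.7% in KO. WT replicate 2 was the only library with more CTC reads of 20 nt than of 21 nt. Within TTC, reads of 21 nt were 94.2% and 94.7% in WT and 89.7% and 96.0% in KO, so the genotypes overlapped. Reads of both anticodons reached 44 or 45 nt, near or at the upper edge of the files.

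Longer fragments, of 29 to 34 nt, were rare for tRNA-Glu. They numbered 20 and 68 reads in WT, and in KO 199 and 60, which is 0.106% and 0.127% in WT and 0.162% and 0.0662% in KO. The genotypes overlapped (means 0.117% ± 0.0152 and 0.114% ± 0.0679, SD, n = 2 each; exact permutation p = 1). Among nuclear tRNA reads of this window, tRNA-Glu took 3.13% and 4.31% in WT and 10.7% and 3.79% in KO, so the genotypes overlapped there too. Its large share of nuclear tRNA reads thus held for all lengths together and not in this window. Of the CTC reads in this window, 276 of 291 ended within the anticodon loop or before it, whereas 48 of 56 TTC reads lay on the 3′ side. Reads that the files label as a 5′ end, all of them CTC, numbered 1 and 8 in WT and 8 and 7 in KO.

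Nearly all tRNA-Glu reads came from the 5′ side of the tRNA, with both ends at a few fixed positions. Of CTC reads, 80.0% and 82.5% in WT and 78.3% and 78.8% in KO began at position 16, and 19.6% and 16.7% in WT and 21.3% and 20.8% in KO began at position 17. TTC reads began 18 bases before the anticodon in 98.2% and 97.9% of cases in WT and 94.4% and 97.7% in KO, and 17 bases before it in at most 0.902%. A CTC read that began at position 17 and ended at position 35 would hold 19 bases and fall outside the files.

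The 3′ end of the CTC fragments differed between the libraries, and without overlap between the genotypes. The shares of the starting positions given above, for CTC and for TTC, did not overlap between the genotypes either, with smaller differences. A CTC read from position 17 to 35 falls outside the files, so the CTC start shares are not separate from the 3′ end. Of the leading CTC fragments that end at position 36, the one from position 16 outnumbered the one from position 17 by 2.86 and 2.15 to 1 in WT. In KO it did so by 3.27 and 3.08 to 1, so here the later start was relatively less frequent in KO. Reads that ended on the last anticodon base, position 36, were 75.0% and 51.9% of CTC reads in WT and 90.6% and 84.4% in KO. Reads that ended 1 base earlier were 24.1% and 46.9% in WT and 8.95% and 15.04% in KO. Both KO libraries thus lay outside the WT range at both positions. Nearly all CTC reads ended at position 35 or 36, so 1 share mirrors the other. For position 35 the means were 35.5% ± 16.1 in WT and 12.0% ± 4.31 in KO (SD, n = 2 each; exact permutation p = 0.333, the smallest possible). WT replicate 2 was the most extreme library, and this pattern was noticed in the data before it was measured. Over CTC and TTC together, reads that ended in the anticodon letters were 77.1% and 62.5% in WT and 90.6% and 85.7% in KO. The difference between the genotype means was 18.4 points, and 11.1 points without WT replicate 2.

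TTC fragments ended 1 base early less often than CTC fragments in every library. Reads that ended on the middle anticodon base were 3.996% and 3.07% of TTC reads in WT and 4.70% and 1.67% in KO. The CTC share exceeded the TTC share in all 4 libraries, by 20.1 and 43.8 points in WT and by 4.26 and 13.4 points in KO (mean 20.4 ± 16.9, SD, n = 4). The exact sign-flip permutation test over the 4 libraries gave p = 0.125, the smallest it can give.

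Each of the 4 leading fragments had at least 1908 reads in every library. The 21-nt CTC fragment had 9357 and 14252 reads in WT, and in KO 82000 and 51285, which is 43.2% and 22.3% of nuclear tRNA reads in WT and 60.2% and 47.8% in KO. It was the most frequent sequence of any kind in KO replicate 1, and ranked 3, 5 and 2 in WT replicates 1 and 2 and KO replicate 2. In this share and in CPM, both KO libraries lay above both WT libraries. In CPM the same held for 23.6% of all 2877 sequences tested, and no such count was made on the nuclear tRNA scale. In counts scaled to the whole library by TMM factors, KO exceeded WT by 1.20 on the log2 scale (edgeR, SE 1.04, adjusted p = 0.711), so the difference was about as large as its error. It was 0.71 without KO replicate 1 and 1.56 without KO replicate 2.

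The 20-nt CTC fragment with the shorter 3′ end went the other way. It had 4051 and 18877 reads in WT, and in KO 10568 and 12109, which is 18.7% and 29.5% of nuclear tRNA reads in WT and 7.75% and 11.3% in KO. In this share and in CPM, both KO libraries lay below both WT libraries. In CPM the same held for 17.9% of all 2877 sequences tested. Its log2 ratio of KO to WT was -1.06 (edgeR, SE 0.98, adjusted p = 0.746), and -0.44 (SE 0.96) without WT replicate 2. The 21-nt fragment outnumbered it 2.31 to 1 and 0.755 to 1 in WT, and 7.76 to 1 and 4.24 to 1 in KO.

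The 20-nt CTC fragment with the shorter 5′ end followed the 21-nt one more closely. It had 3268 and 6631 reads in WT, and in KO 25075 and 16643, or 15.1% and 10.4% of nuclear tRNA reads in WT and 18.4% and 15.5% in KO. KO replicate 2 was barely above WT replicate 1. Its log2 ratio of KO to WT was 0.85 (edgeR, SE 0.97, adjusted p = 0.818), and 0.42 without KO replicate 1. The 21-nt fragment outnumbered it 2.86 to 1 and 2.15 to 1 in WT and 3.27 to 1 and 3.08 to 1 in KO, a narrower range than at the 3′ end.

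The 21-nt TTC fragment had 1908 and 12341 reads in WT, and in KO 3865 and 9690. Its share of nuclear tRNA reads was 8.81% and 19.3% in WT and 2.84% and 9.03% in KO, so KO replicate 2 lay between the WT libraries. Its log2 ratio of KO to WT was -1.09 (edgeR, SE 0.98, adjusted p = 0.735), and -0.13 (SE 0.95) without WT replicate 2. It was -0.59 without KO replicate 1 and -1.72 without KO replicate 2. Together the 4 fragments were 98.4% and 97.6% of tRNA-Glu reads in WT and 99.0% and 98.9% in KO. They were 9.02% and 7.41% of all reads in WT and 17.3% and 12.0% in KO.

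The next fragments by abundance were each below 1% of nuclear tRNA reads. They are shown because they carry the same ends or run past the anticodon.

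TTC, 20 nt: cggttaggattcctggttTT
CTC, 24 nt: tggttaggattcggcgctCTCacc
CTC, 22 nt: ttaggattcggcgctCTCaccg
CTC, 23 nt: ggttaggattcggcgctCTCacc

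The 20-nt TTC fragment, 1 base shorter at the 3′ end, had 81 and 401 reads in WT, and in KO 203 and 169 (edgeR, log2 ratio of KO to WT -1.40, SE 0.86, adjusted p = 0.545). The 24-nt CTC fragment, which ran 3 bases past the anticodon, had 65 and 91 reads in WT, and in KO 59 and 95 (-1.37, SE 0.86, adjusted p = 0.554). The 23-nt CTC fragment had 26 and 46 reads in WT, and in KO 34 and 32 (-1.39, SE 0.88, adjusted p = 0.559). As shares of nuclear tRNA reads, and in CPM, all 3 were lower in both KO libraries than in both WT libraries. In CPM the same held for 17.9% of all 2877 sequences tested, and the share over all sequences was not counted on the nuclear tRNA scale. These 3 also had the smallest p on the lower side among tRNA-Glu sequences, so their lack of overlap is no separate result. Without WT replicate 2 the 20-nt TTC fragment had -0.71. The 22-nt CTC fragment from positions 19 to 40 had 12 and 158 reads in WT, and in KO 221 and 117, with KO inside the WT range (0.10, SE 0.90, adjusted p = 0.980). Its value ran from -0.58 without WT replicate 1 to 1.91 without WT replicate 2.

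Fragments of the 3′ side were few and came mainly from TTC. They were 7 and 11 CTC reads in WT, and in KO 28 and 36, against 24 and 192 TTC reads in WT, and in KO 184 and 161. Reads that named CTC first and TTC second numbered 6 and 10 in WT, and in KO 28 and 32, close to these CTC counts. The side they came from was not counted apart, so the CTC reads of the 3′ side may not be specific to CTC. The leading one, the 25-nt TTC read shown above, had 0 and 23 reads in WT, and in KO 18 and 17. TTC reads of the T arm fell into 2 kinds that differ in 1 letter, with 319 and 186 reads over the 4 libraries, and the read shown above belongs to the more frequent kind. Mature tRNAs end in CCA, which is added after transcription. Of tRNA-Glu reads that reached this end, 167 stopped after the first C and 300 after the second, and 0 held the full CCA. Those 300 reads did not match the genome, while 86.2% of the 167 did. Other tRNAs in these libraries had 180 reads labelled as CCA ends.

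No tRNA-Glu annotation or sequence passed the test between genotypes. Summed by annotation, 3 of the 5 tRNA-Glu strings had enough reads to test, and 0 of them were called by edgeR, against a background of 0% called higher and 0% called lower of 122 annotations. At an unadjusted p under 0.05 the count was also 0, against 2.46% higher and 1.64% lower of all annotations, and DESeq2 called 0. The annotation mature-tRNA-Glu-CTC had a log2 ratio of 0.54 (SE 0.58, adjusted p = 0.940), and mature-tRNA-Glu-TTC had -1.18 (SE 0.70, adjusted p = 0.808). Reads that named CTC first and TTC second had 0.52 (SE 0.89, adjusted p = 0.975). Leaving out 1 library at a time gave 0.03 (without KO replicate 1) to 0.96 (without KO replicate 2) for CTC, and -1.64 (without KO replicate 2) to -0.18 (without WT replicate 2) for TTC. The median over all 122 annotations was -0.09.

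Among single sequences, 22 of the 212 had enough reads to test and 0 of those were called, against a background of 0.348% called higher and 0.0695% called lower of 2877 sequences (edgeR). At an unadjusted p under 0.05 the count was 0 as well, against 5.25% higher and 5.98% lower of all sequences, and DESeq2 called 0. The smallest p on the higher side belonged to the 21-nt CTC fragment, the 20-nt CTC fragment with the shorter 5′ end, and a 20-nt TTC fragment of the 3′ side, cgactcccggtgtgggaacc (0.68, SE 1.14, adjusted p = 0.894). Those on the lower side belonged to the 20-nt TTC fragment and the CTC fragments of 24 and 23 nt described above. In CPM, 4 of the 22 were higher in both KO libraries than in both WT libraries and 5 were lower in both, against 23.6% and 17.9% of all sequences tested. The median log2 ratio of the 22 was -0.34, against 0.09 for all sequences tested. With plain library totals in place of TMM factors it was 0.18, against 0.46, so the sign of the median depends on the scaling.

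Scaled to nuclear tRNA reads alone, neither anticodon passed the test. Of 22 nuclear tRNA classes by anticodon and form, 0 were called in either direction (0% higher and 0% lower, edgeR). CTC had a log2 ratio of 0.20 (SE 0.40, adjusted p = 0.719) and TTC of -1.24 (SE 0.51, adjusted p = 0.238, unadjusted p = 0.0203). At an unadjusted p under 0.05, TTC was 1 of 3 classes on the lower side, which is 13.6% of all classes, and 0 classes were on the higher side. DESeq2 called 0 and gave TTC -1.24 with an adjusted p of 0.215. The median over the 22 classes was -0.92, so TTC stood close to the others in this scaling, in which 1 class holds most of the reads. With TMM factors TTC had -0.64 against a median of -0.17. Without WT replicate 2 the TTC value was -0.57 (edgeR, adjusted p = 0.846), and without KO replicate 1 it was -0.66. Without KO replicate 2 it was -2.23 and passed the test (adjusted p = 0.00225, edgeR).

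tRNA-Gly, tRNA-His and tRNA-Asp, the amino acids next in abundance, had far smaller shares of nuclear tRNA reads. tRNA-Gly had 8.89% and 9.65% in WT and 7.10% and 12.0% in KO, and tRNA-His and tRNA-Asp had at most 2.80% in any library. The leading tRNA-Gly fragment is shown for comparison, with its anticodon GCC in capitals.

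Gly-GCC, 20 nt: tggtagaattctcgcctGCC

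It also ended on the letters of its anticodon, with 601 and 3262 reads in WT, and in KO 4636 and 7544. Lengths of tRNA-Gly reads were more spread, with 36.0% and 63.0% of 20 and 21 nt in WT and 52.8% and 63.3% in KO. The tRNA-Glu share exceeded the tRNA-Gly share of such reads in all 4 libraries, by 45.3 points on average (SD 12.8, exact sign-flip permutation p = 0.125, n = 4, the smallest possible). Against tRNA-His and tRNA-Asp the margin was 57.9 and 60.3 points, also in all 4 libraries with the same p. The lengths of 20 and 21 nt were chosen after those of the leading tRNA-Glu fragments were seen. An excess of tRNA-Glu at these lengths was thus largely fixed in advance. Reads of 29 to 34 nt were 9.48% to 28.2% of tRNA-Gly reads, where tRNA-Glu had at most 0.162%. Reads that ended in the anticodon letters were 36.8% and 63.2% of tRNA-Gly reads in WT and 53.0% and 63.3% in KO. tRNA-Glu was above that in 3 of 4 libraries and slightly below in WT replicate 2 (mean margin 24.9 points, exact sign-flip permutation p = 0.25, n = 4). This measure matched the last letters of a read without placing it on the tRNA. The letters gcc also occur just before the anticodon in the tRNA-Gly fragment shown, so a read ending there was counted too. Over the 3 amino acids and 4 measures, 12 such comparisons were made, and after Benjamini-Hochberg adjustment the smallest p was 0.136. The comparison of shares of nuclear tRNA reads was fixed too, since the 3 amino acids were chosen as the next in abundance.

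The number of distinct tRNA-Glu sequences was lowest in the library with the fewest reads, and its order did not otherwise follow depth. There were 68 and 124 in WT and 125 and 115 in KO, of which 39 to 43 per library rested on 1 read. At the depth of WT replicate 1, 18885 tRNA-Glu reads, the expected numbers were 82.7 in WT replicate 2 and 58.3 and 59.2 in KO. Both KO libraries then lay below both WT libraries. Of the 212 sequences, 43 were found in all 4 libraries and 105 in only 1. Of all 212, 181 matched the joined tRNA-Glu sequences without a mismatch, 29 with 1 mismatch and 2 with more.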

How the data were processed

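Small RNA of 4 sperm libraries was analysed. The oocyte and blastocyst samples were not used here. Each file, as deposited by the authors, lists distinct sequences of 20 to 45 nt with a whole read count, whether it matched the genome, and its annotation. How reads were trimmed and annotated is not given in the sources used here. The submitters' processing notes name mm10/GRCm38, and the labels hold a library protocol for blastocysts alone. Groups came from the titles.

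tRNA-Glu rows were those whose first name held tRNA-Glu and not mt_tRNA. Counts of reads were summed by anticodon, form, length and sequence. The 3 fits, by annotation string, by sequence and by nuclear tRNA class, each covered all rows of their kind. They used the quasi-likelihood test of edgeR 4.0.16 (R 4.3.3, filterByExpr, TMM factors except for tRNA classes, where library size was the nuclear tRNA total, and Benjamini-Hochberg adjustment at 0.05). SE was the log2 fold change divided by the root of F. Single values used exact permutation tests (scipy 1.17.1). The annotation and sequence fits were tested on simulated data, where most planted log2 changes of 2 in either direction were not called, so an uncalled row does not show that genotypes were alike. Sequences were joined by exact overlaps of at least 15 nt. Alternatives were DESeq2 1.42.0, other scalings and filters, genome-matching sequences, other annotation rules and denominators, the replicate block and each library left out.

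Named sequences were the 8 most abundant by mean share of nuclear tRNA reads, the leading one of each anticodon, form and end class, those with the 3 smallest p in each direction, and the 3 other leading amino acids. Annotations, all tested, were named too. The members and lists were chosen with earlier results of these data known. The measures of 20 and 21 nt, of the 3′ end and of the start, and the fits without rRNA reads, were added after the data were seen. Some sequences are not reported here.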

Additional observations from a re-analysis of the deposited data

How the results depend on the processing

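Counts of called tRNA-Glu annotations and sequences were 0 under every alternative, including the fits that left out 1 library (0 to 0) and the replicate block. The replicate number marks no shared animal or batch in the labels, and the deviations of same-numbered libraries had a correlation of -0.254 over annotations and -0.0698 over sequences. With the replicate block, TTC scaled to nuclear tRNA reads had a log2 fold change of -1.34 and passed the test (adjusted p = 0.00821, edgeR). The block moved the calls over all sequences from 10 higher and 2 lower to 14 and 2, and crossed numbers, an alternative added after the data were seen, gave 9 and 2 with 0 tRNA-Glu classes called. Without KO replicate 2 the TTC value was -2.23, and leaving out 1 library at a time gave -2.23 to -0.57 for TTC and 0.06 to 0.36 for CTC. A lone library was taken to vary like the other genotype. The cause of these differences was not tested.

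The difference in the tRNA-Glu share was 6.42 points of all reads and 8.15 points of annotated reads, against 1.97 points of nuclear tRNA reads. Leaving out 1 library gave -0.786 to 4.72 points for that share, 3.40 to 17.1 for the CTC share, -0.00787 to 0.00182 for 5′ ends, -0.0505 to 0.0455 for 29 to 34 nt and 0 to 0 for the mature form. With sequences of at least 10 reads the difference was 0.0526 points for 29 to 34 nt and 0.253 points for 20 and 21 nt. The log2 fold change of the 22-nt CTC fragment ttaggattcggcgctctcaccg, 0.10 with all libraries, changed sign to -0.15 with 10 reads in every library of a genotype, -0.58 without WT replicate 1, -0.48 without KO replicate 1, -0.019 with genome-matching sequences and -0.16 without rRNA reads, and was 1.91 without WT replicate 2 (adjusted p = 0.427, edgeR). Over all sequences edgeR called 10 higher and 2 lower, against 269 and 294 without WT replicate 1, 17 and 16 without WT replicate 2, 0 and 0 without KO replicate 1, 6 and 0 without KO replicate 2 or with library totals, 38 and 5 with the 10-read filter, 2 and 1 with genome-matching sequences and 6 and 3 without rRNA reads. DESeq2 called 8 and 8. Library totals moved the median log2 ratio of all annotations from -0.09 to 0.44 and of all sequences from 0.09 to 0.46. WT replicate 1, with 18885 tRNA-Glu reads, limits the precision for rare fragments. Intervals and floors cover counting error only, since reads had no molecular identifiers.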

Other observations

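Mitochondrial tRNA reads, which are outside the nuclear tRNA-Glu fragments, were 20.3% and 5.50% of all reads in WT and 19.6% and 13.6% in KO. Reads of 20 and 21 nt were 1.17% to 4.99% of them, against 98.6% to 99.3% of nuclear tRNA-Glu reads in the same libraries. Among nuclear tRNA reads other than tRNA-Glu, 34.9% to 56.1% had these lengths, and 28.5% to 51.9% ended in the letters of their own anticodon.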
